A study of Mus musculus with 12 samples.

Results

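Cerebral cortex of mice lacking Tert was compared with cortex of wild-type mice across all expressed genes. The comparison rests on the 6 cortex columns of a deposited expression table, 3 from knockout and 3 from wild-type cortex, and on every gene whose normalized counts in those columns averaged 10 or more, which left 21945 of 55487 genes. A normalized count is the number of sequencing reads assigned to a gene, scaled so that libraries of different depth can be set side by side. The wild-type group carries the genotype label mTert WT and the other group mTert KO (G1), called knockout here. Both are of the C57BL/6 strain, and total RNA was taken from the cortex with Trizol. The sources used here give no age or sex of the mice and do not say whether libraries of 1 group stem from different animals. The p-values therefore measure only how these samples spread, and that spread may be technical. The study also holds 6 hippocampus libraries of the same genotypes, used below only to test whether a change differed between the tissues.

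Tert encodes the reverse transcriptase subunit of telomerase, which extends chromosome ends by copying an RNA template. Most cells of the adult brain no longer divide and hold little telomerase activity, and telomeres of mice without telomerase shorten over successive generations of breeding. The cortex is built of layered excitatory neurons, inhibitory interneurons, glia and vessels, and it borders on the striatum, the claustrum, the hippocampus, the ventricles with their choroid plexus, and the meninges. Transcripts known from these neighbours can therefore enter a dissected sample.

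All 6 libraries held high levels of Slc17a7, a vesicular glutamate transporter that marks cortical excitatory neurons. It measured 112294, 111308 and 112057 normalized counts in the wild-type libraries, in the order 1 to 3, and 122990.04, 126306 and 127469.5 in the knockout libraries, in that order too. The Y-linked gene Ddx3y measured 2613, 1859 and 2491 in wild type and 2699.5, 2623 and 2731 in knockout, so male tissue contributed to every library. Recovered read totals lay between 68424934 and 77972013 per library, which makes counting error small for all but the lowest genes.

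Tert (ENSMUSG00000021611, chromosome 13, 73626911 to 73649843, plus strand, GRCm38) was read first, because it checks the labels. It measured 206, 105 and 241 normalized counts in wild type and 0 in each of the 3 knockout libraries. With each knockout library set to the floor of 3 reads that a count of 0 allows, the level was at least 60.5-fold lower in the knockout. App, the amyloid precursor gene, was the other gene named in advance. It measured 109503, 97595 and 109491 in wild type and 132796, 135338 and 134486 in knockout, which did not pass with all 6 libraries (0.35 ± 0.07 log2, adjusted p = 0.0601). It was called without wild-type library 2 (0.29 ± 0.02 log2, adjusted p = 2.13e-05), in 9 of 24 alternative fits, and in knockout hippocampus (0.33 log2, adjusted p = 0.00328).

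The chromosome around Tert was examined because a targeted locus can carry flanking sequence that differs from the wild type. Of 155 tested genes within 10 Mb of Tert, 5 were called (3.23%, against 1.94% of all tested genes). A gene is called here at a Benjamini-Hochberg adjusted p below 0.05 in limma's test across all 21945 genes. Adamts16, which encodes a secreted metalloprotease, measured 356, 285 and 368 in wild type and 207, 168 and 185 in knockout (-0.84 ± 0.15 log2, adjusted p = 0.0424). Rfesd, named for its Rieske iron-sulfur domain, measured 590.4, 514 and 567 and 786, 767 and 758 (0.47 ± 0.09 log2, adjusted p = 0.046). Of the other called genes there, 2 were predicted genes. Without wild-type library 2, 28 of the 155 were called (18.1%, against 21.3% of all tested genes).

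Wild-type library 2 stood apart from the other wild-type libraries, and the counts of called genes below are therefore given with and without it. The chi-square per gene between libraries 1 and 3 was 9.72, and between library 2 and these it was 104 and 95.6. Pairs of knockout libraries gave 7.21 to 11.2. In library 2, 1172 genes lay at least 1 log2 unit from both other wild-type libraries, 303 above and 869 below, where the same count for the 5 other libraries ran from 265 to 360. Kctd12 was listed at 0 in library 2 and measured 3824, 3619.9 and 3655 in the knockout libraries, and Lrrc17 was also listed at 0 there against 5125, 4829 and 5209. Neither gene was called with all 6 libraries (adjusted p = 0.504 and 0.493). Each library held some genes under 1% of the median of the other 5 libraries, where that median was at least 100. There were 8 such genes in library 2, 4 and 3 in wild-type libraries 1 and 3, and 5, 3 and 6 in knockout libraries 1 to 3.

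The level in library 2 also followed exonic length, the summed length of a gene's merged exons. Against the mean of wild-type libraries 1 and 3, the median protein-coding gene of up to 2 kb lay 0.34 log2 units higher in library 2. The median gene of over 12 kb lay at -0.46. The 3 knockout libraries showed no such slope below 8 kb but lay at -0.17 to -0.18 for genes over 12 kb, as the plot of levels by exonic length shows. The part that gene length plays in the changes below was tested only by removing the trend from each library, which is reported with the other alternatives.

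**Figure D1:**
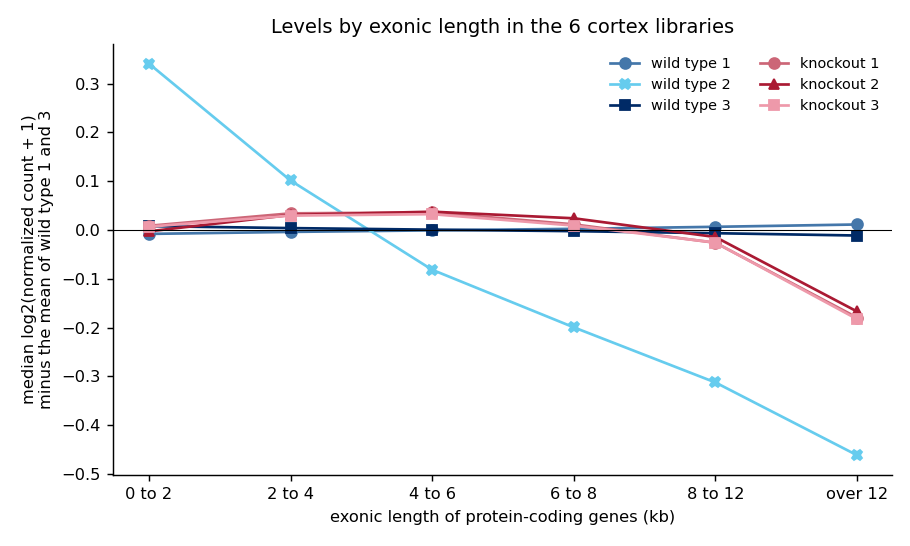
Median log2(normalized count + 1) of protein-coding genes minus the mean of wild-type libraries 1 and 3, on the y axis, for 6 classes of exonic length in kb on the x axis, with 1 line per library. Wild-type library 2 runs from 0.34 in the shortest class to -0.46 in the longest, and the 3 knockout libraries part from wild-type libraries 1 and 3 in the class over 12 kb.

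With all 6 libraries 426 of 21945 genes were called (1.94%), 281 higher (1.28%) and 145 lower (0.661%) in the knockout. Without library 2 the count was 4675 (21.3%), of which 2409 were higher (11%) and 2266 lower (10.3%). All 426 genes called with 6 libraries were also called in the same direction without library 2. The median log2 fold change of all tested genes was -0.01 with all 6 libraries and -0.00 without library 2, so the middle of the table lay near 0 in both. Leaving out another library lowered the count, to 107 or 66 when wild-type library 1 or 3 was dropped, and to 63, 44 or 15 when knockout library 1, 2 or 3 was. In 6200 genes the groups did not overlap (28.3%), with every knockout library above every wild-type library in 3521 (16%) and below in 2679 (12.2%).

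**Figure D2:**
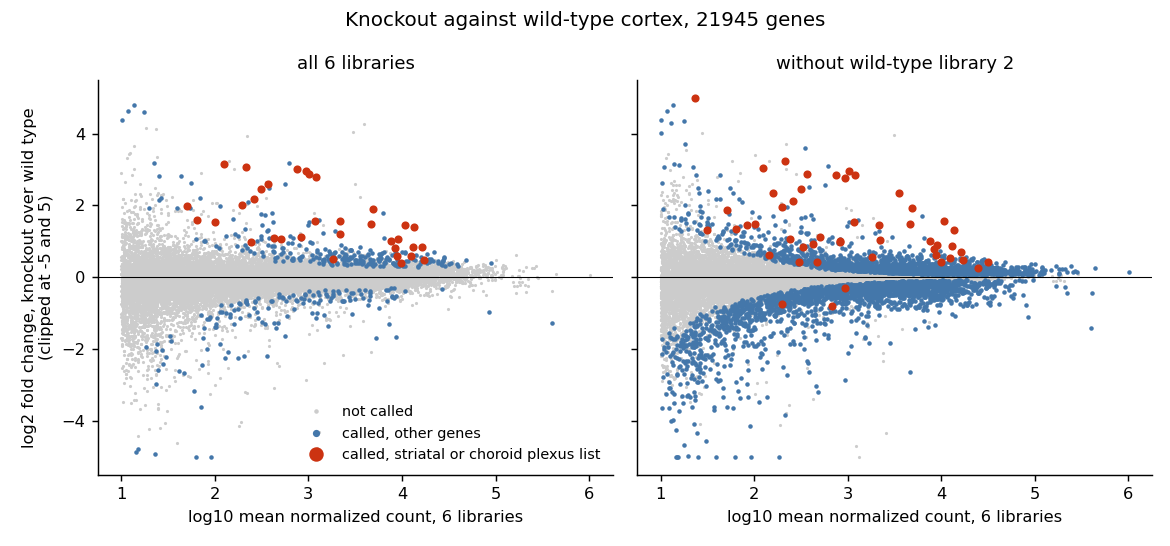
Log2 fold change of knockout over wild-type cortex (y axis, clipped at -5 and 5) against the log10 mean normalized count (x axis) for 21945 genes, with all 6 libraries on the left and without wild-type library 2 on the right. Blue points are called genes, red points called members of the striatal and choroid plexus lists, and grey points genes that were not called: 426 genes were called on the left and 4675 on the right.

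Genes known from striatal neurons rose and were set aside before the rest was described. Of 48 tested genes in the striatal list 31 rose and 0 fell (41 and 1 without library 2), with a median log2 fold change of 1.10 beside -0.01 over all genes. The summed level of that list was 163309, 164189 and 166166 normalized counts in wild type and 239076, 302299 and 269202 in knockout. In the choroid plexus list 3 of 38 tested genes rose and 0 fell (5 and 2 without library 2), with a median of 0.29. Its summed level was 36500, 33114 and 36276 in wild type and 42365, 54932 and 47680 in knockout. Enpp2, which the oligodendrocyte list also holds, gave 14436, 14124 and 14497 of this sum in wild type. In knockout it gave 18642, 21982 and 19935, so the sum is not particular to choroid plexus. Both list sums were lowest in knockout library 1 and highest in knockout library 2. That order was shared by 38 of the 48 striatal and 27 of the 38 choroid plexus genes, and by 20.4% of all tested genes. In bulk tissue, fewer or more cells of a type and less or more RNA per cell cannot be told apart.

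Syndig1l, a synaptic membrane protein gene, measured 272, 329 and 294 in wild type and 1628, 2603 and 2061 in knockout (2.79 ± 0.17 log2, adjusted p = 0.00131). Among its block it was the 1 gene called whichever library was left out. Drd2, the dopamine D2 receptor, measured 209, 126 and 159 and 959, 1775 and 1305, and Cd4, a co-receptor of T cells that is also in the striatal list, 83.2, 92.2 and 107 and 374, 636 and 596. The choroid plexus members that rose were Car12, a carbonic anhydrase (1.06 ± 0.13 log2), the autotaxin gene Enpp2 (0.49 ± 0.07 log2) and the chloride channel gene Clic6 (0.97 ± 0.17 log2). Ttr, the defining choroid plexus transcript, was called only without library 2 (adjusted p = 0.0955, and 0.0198 without it). It measured 971, 1250.3 and 940.5 in wild type and 1928, 10183 and 6024 in knockout, with a wide spread among the knockout libraries and library 2 highest.

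Among the other marker lists the sums for 8 were higher in all 3 knockout libraries than in any wild-type library and those for 2 were lower. The claustrum and piriform sum rose from 31552 ± 2216 to 38166 ± 193 (SD, n = 3 each), a ratio of 1.21. Sums for oligodendrocytes (ratio 1.16), endothelial cells (1.13), mural cells (1.19), microglia (1.09), excitatory neurons (1.08), inhibitory interneurons (1.07) and ependymal cells (1.05) were higher by less. In the last 2 lists the sum and most members differed in direction, since the median log2 fold change was -0.08 for 29 interneuron genes and -0.21 for 25 ependymal genes. Of these genes 7 and 1 had every knockout library above every wild-type library (24.1% and 4%, beside 16% of all genes). Below every wild-type library were 10 and 6 (34.5% and 24%, beside 12.2%). The ependymal sums barely parted, at 8146 in wild-type library 3 and 8147 in knockout library 1. The microglial sums were also close, at 41876 in wild-type library 2 and 42115 in knockout library 2. Meningeal fibroblast markers were lower, at 56506, 70606 and 56206 in wild type and 46287, 27860 and 37511 in knockout (ratio 0.61 beside 1.64 for striatal and 1.37 for choroid plexus genes), with knockout library 2 lowest. Hippocampal markers were lower with a ratio of 0.92. The sums for upper and deep cortical layers, astrocytes, oligodendrocyte precursors, thalamus and blood cells overlapped between the groups. Wild-type library 2 was highest of all 6 libraries for the hippocampal, meningeal, thalamic and blood lists. Most of the meningeal sum came from Ptgds, which is described below and was also highest in library 2. The thalamic list shares Nrgn and Slc17a6 with the excitatory neuron list, so its sum is not particular to thalamus. The median log2 fold change of its 19 tested genes was -0.02 with all 6 libraries and -0.14 without library 2. Whether library 2 held more thalamic tissue was not tested. The part of the differences between marker sums in the gene changes below was not tested.

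**Figure D3:**
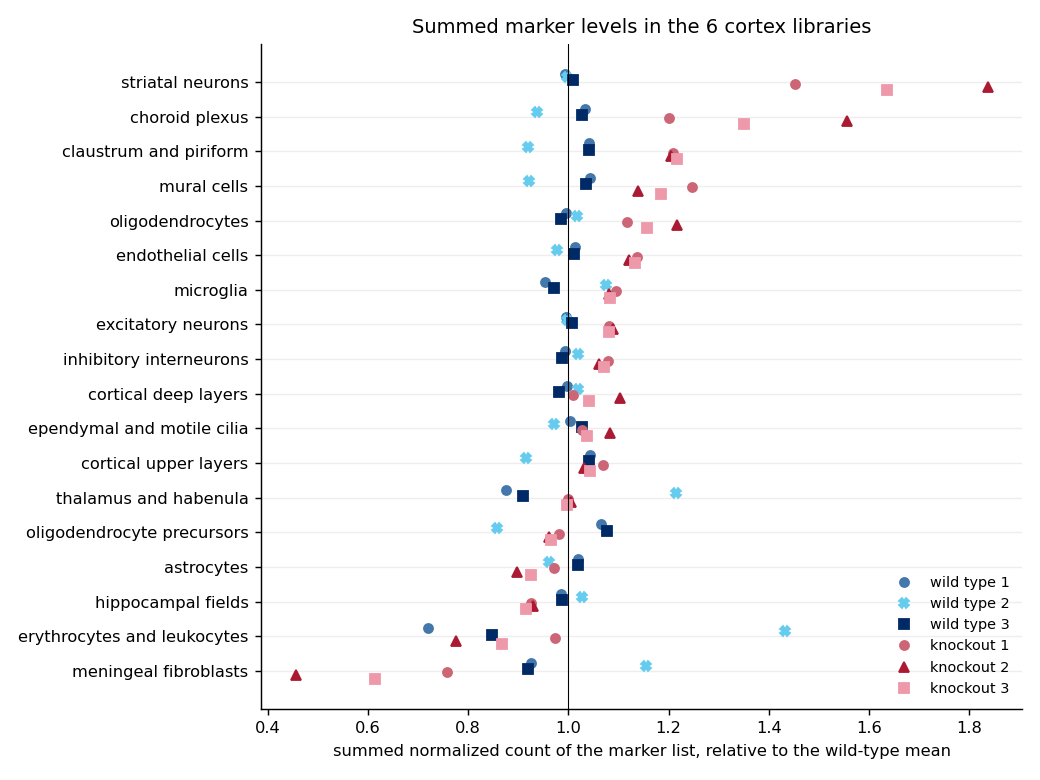
Summed normalized count of each of 18 marker lists in each cortex library, relative to the wild-type mean (x axis). The 3 knockout libraries lie farthest to the right for striatal neurons, ordered library 1, 3 and 2, and farthest to the left for meningeal fibroblasts, while wild-type library 2 parts from the other wild-type libraries for blood cells, thalamus and meninges.

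Outside the striatal and choroid plexus lists 392 of 21859 genes were called (1.79%), 247 higher (1.13%) and 145 lower (0.663%). Without library 2 these counts were 4626 (21.2%), 2363 (10.8%) and 2263 (10.4%). Counts of called genes in each list below are to be read beside these shares. Of the 392, 327 were protein coding and 70 were predicted genes without a proper name. A change of at least 1 log2 unit was reached by 49 genes that rose and 60 that fell, and without library 2 by 126 that rose and 450 that fell. The median size of the change was 0.64 log2 units in genes called with all 6 libraries and 0.29 in genes called without library 2, so changes in the longer list were smaller at the median. The order of the knockout libraries seen in the striatal block was also held by 100 of the 247 rises, beside 20.4% of all tested genes. The reverse order was held by 44 of the 145 falls, beside 19.5% of all tested genes.

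Few of these calls stood whichever library was left out. The count outside the lists was 84 and 51 without wild-type libraries 1 and 3, and 42, 30 and 14 without knockout libraries 1, 2 and 3. Only 14 genes outside the 2 lists were called in all 6 fits that leave out 1 library each. They include Tert, Mid1, the kappa opioid receptor gene Oprk1, the sialyltransferase gene St8sia3, the clock gene Ciart and Frzb, a secreted Wnt inhibitor. Frzb measured 551, 529.98 and 525 in wild type and 1132, 1100.05 and 1156 in knockout (1.08 ± 0.07 log2, adjusted p = 0.00232). Sept2 and Ptp4a1 were among them too, but a second gene model shares their exons and their values are uncertain.

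The 15 largest rises outside the 2 lists were chosen among genes whose groups did not overlap, so their separation is no finding. St8sia3, which adds sialic acid to existing sialic acid chains (ENSMUSG00000056812, chromosome 18, 64254359 to 64279611, plus strand), measured 3076, 2523 and 2942 in wild type and 9427, 10118 and 9711 in knockout. The knockout libraries lay close together, and the log2 fold change was 1.78 ± 0.08 (adjusted p = 0.000985). Oprk1, the receptor of dynorphin peptides (ENSMUSG00000025905, chromosome 1, 5588466 to 5606131, plus strand), measured 190.2, 173 and 187 and 621, 687 and 588. Its log2 fold change was 1.78 ± 0.10 (adjusted p = 0.00116), and knockout library 2 was again highest but library 3 lowest. Tacr1, the substance P receptor, measured 96.1, 85.2 and 116 and 229.5, 229 and 223 (1.20 ± 0.15 log2).

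Impg1, a matrix proteoglycan gene known from the retina (ENSMUSG00000032343, chromosome 9, 80313330 to 80465481, minus strand), had the largest fold change at a low level. It measured 10.9, 11 and 23 in wild type and 68.7, 138 and 84.5 in knockout (2.64 ± 0.39 log2, adjusted p = 0.0293), with the striatal order of the knockout libraries. Hes3, a repressor of the Hes family, measured 20.8, 23 and 28.7 and 117, 105 and 121 (2.20 ± 0.21 log2). Its knockout libraries were nearly equal, with library 2 lowest. Clspn, the replication checkpoint adaptor claspin, measured 31.7, 17 and 19.1 and 102, 76.6 and 80.2 (1.92 ± 0.29 log2), with knockout library 1 highest.

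Ptprv, a receptor-type phosphatase gene, measured 155, 85.2 and 207 in wild type and 396, 571 and 469.7 in knockout (1.75 ± 0.31 log2, adjusted p = 0.0446). Dach1, a transcriptional cofactor, measured 213, 180.3 and 232 and 393, 702 and 503 (1.32 ± 0.21 log2), and Prkch, protein kinase C eta, 205, 195 and 223 and 435, 583 and 514 (1.28 ± 0.13 log2). All 3 genes followed the striatal order, with knockout library 1 lowest and library 2 highest. Cd59a, an inhibitor of complement lysis, measured 203, 244 and 199.96 and 565, 649.9 and 669 (1.54 ± 0.12 log2). Nexn, which binds actin filaments, measured 157, 226 and 138 and 404, 497 and 502 (1.45 ± 0.20 log2). In Cd59a and Nexn knockout library 3 was highest.

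Plin4, a lipid droplet coat protein, measured 454, 524 and 593 in wild type and 1302, 1758 and 1516 in knockout (1.54 ± 0.14 log2, adjusted p = 0.00723). Col11a1, a fibrillar collagen chain, measured 897, 748 and 932 and 2072, 1855 and 2082 (1.23 ± 0.10 log2, adjusted p = 0.00529), and here knockout library 2 was lowest.

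**Figure D4:**
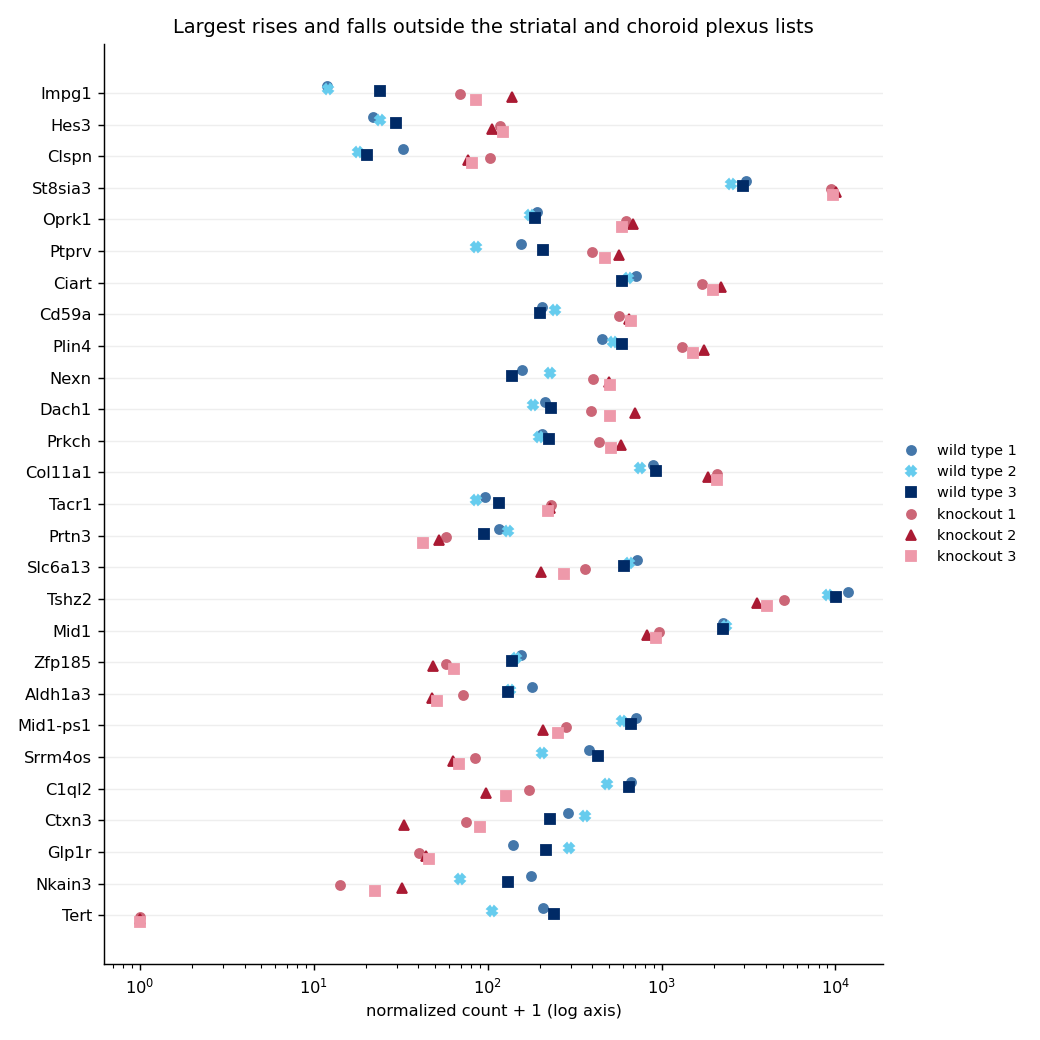
Normalized count + 1 on a log axis in each of the 6 cortex libraries for Tert and for genes of the 15 largest rises and 15 largest falls among called genes outside the striatal and choroid plexus lists, ordered by log2 fold change from 2.64 for Impg1 at the top to -7.45 for Tert at the bottom. Blue marks are wild-type and red marks knockout libraries; the groups do not overlap in any of these genes because the rule for naming them required it.

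Besides Tert, the largest falls included receptors and secreted proteins of particular neurons. Glp1r, the receptor of glucagon-like peptide 1 (ENSMUSG00000024027, chromosome 17, 30901817 to 30940791, plus strand), measured 139, 295 and 215 in wild type and 39.5, 43.5 and 44.9 in knockout (-2.25 ± 0.27 log2, adjusted p = 0.0156). The wild-type libraries varied more than the knockout ones, with library 2 highest. C1ql2, a secreted protein known from hippocampal mossy fibre synapses, measured 668, 483 and 645 and 173, 96.2 and 127 (-2.20 ± 0.23 log2, adjusted p = 0.00847). Ctxn3, of the cortexin family, measured 289, 359.7 and 229 and 74.3, 32.1 and 89.9 (-2.24 ± 0.38 log2). Knockout library 2 was lowest in both C1ql2 and Ctxn3.

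Nkain3, which encodes a partner of the sodium pump, measured 176, 68.1 and 129 in wild type and 13.2, 31 and 21.4 in knockout (-2.43 ± 0.43 log2, adjusted p = 0.0446). Srrm4os, a noncoding RNA opposite the splicing factor gene Srrm4, measured 382, 204 and 432 and 83.7, 62.1 and 67.4 (-2.18 ± 0.29 log2). In both genes wild-type library 2 lay between the knockout libraries and the other wild-type libraries. Zfp185, an actin-associated LIM protein gene, measured 154, 145 and 138 and 56.4, 47.6 and 63.1 (-1.38 ± 0.17 log2), and Prtn3, a serine protease of neutrophils, 115, 130.2 and 94.7 and 56.4, 51.7 and 41.7 (-1.16 ± 0.20 log2).

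Mid1, a ubiquitin ligase gene that reaches into the pseudoautosomal region of the X chromosome (ENSMUSG00000035299, chromosome X, 169685199 to 170005736, plus strand), measured 2267, 2356 and 2266 in wild type and 961, 825 and 923 in knockout (-1.35 ± 0.08 log2, adjusted p = 0.00116). Mid1-ps1, its copy on the Y chromosome, measured 710.3, 591 and 666 and 282, 207 and 251 (-1.41 ± 0.14 log2). Both fell in every knockout library, but the labels do not say how reads were split between such copies, so each value is uncertain on its own. Eif2s3y, another Y-linked gene, was not called and measured 2414, 2357 and 2303 in wild type and 2513, 2083 and 2255 in knockout (adjusted p = 0.779).

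Several repressor and output genes of the circadian clock rose. In this clock the activators Clock and Arntl (BMAL1) switch on Period, Cryptochrome and Rev-erb genes through E-box elements, and those products in turn repress the activators. Phase depends on the time at which tissue is taken, which the labels do not state. Of 14 tested repressors 4 were called, each higher, with all 6 libraries, and without library 2 9 rose and 0 fell, with medians of 0.30 and 0.28. All tested genes gave 1.28% rises with all 6 libraries, and 11% rises and 10.3% falls without library 2. Among 7 tested activators the 1 call was a rise, and without library 2 1 rose and 3 fell, with medians of -0.20 and -0.31. Of 17 output genes 3 rose and 1 fell (8 and 2 without library 2).

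The promoters of Ciart and Per1 are shown because both genes rose and both hold the E-box letters in the 250 bases before their RefSeq start, from build GRCm38.p6, with the E-box in capitals. The Ciart window is chr3:95882229-95882478 on the minus strand and the Per1 window chr11:69098699-69098948 on the plus strand.
Ciart: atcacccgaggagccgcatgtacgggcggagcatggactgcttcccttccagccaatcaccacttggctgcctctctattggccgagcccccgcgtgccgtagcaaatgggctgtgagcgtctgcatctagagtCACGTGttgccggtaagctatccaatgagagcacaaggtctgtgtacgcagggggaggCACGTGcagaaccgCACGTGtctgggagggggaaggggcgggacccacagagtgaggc
Per1: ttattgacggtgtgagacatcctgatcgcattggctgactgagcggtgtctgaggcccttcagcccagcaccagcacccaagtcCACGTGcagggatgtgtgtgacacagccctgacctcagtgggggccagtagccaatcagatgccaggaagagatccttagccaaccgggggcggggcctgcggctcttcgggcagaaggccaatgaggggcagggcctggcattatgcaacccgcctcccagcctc
Ciart holds 3 copies of CACGTG, starting at -116, -58 and -44 from its start site, and Per1 holds 1, at -166. These windows were picked for holding the letters. The window of a second RefSeq start of Per1 holds none, nor do those of Nr1d1, Dbp and Usp2, which also rose. CACGTG reads the same on both strands. It was found in 6.02% of all 32851 RefSeq promoters of that length, in 9.12% of the 13436 tested genes with a promoter in the table, and in 12 of the 31 genes of the 3 clock lists that have one (38.7%). The D-box letters TTATGTAA, or TTACATAA on the other strand, were found in 0.819% of promoters and in 1 of the 31 genes. The printed windows hold no D-box letters. The ROR element, also searched on both strands, was in 0.177% of promoters and in 0 of the 31 genes.

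Ciart, a repressor of the Clock and Arntl pair (ENSMUSG00000038550, chromosome 3, 95878503 to 95882251, minus strand), measured 716, 641 and 591 in wild type and 1708, 2187 and 1987 in knockout (1.59 ± 0.12 log2, adjusted p = 0.00371). Per1 measured 8317, 6476 and 8138 and 11833, 13041 and 12396 (0.71 ± 0.10 log2, adjusted p = 0.0289). Nr1d1, which encodes the repressor REV-ERB alpha, measured 8668, 7435 and 8543 and 11829.9, 14539.7 and 13402 (0.69 ± 0.10 log2). The repressor Bhlhe40 changed less, from 7714, 8191 and 7899 to 9473, 10063 and 9859.6 (0.30 ± 0.06 log2, adjusted p = 0.048). In all 4 genes knockout library 1 was lowest and library 2 highest of the knockout group, the same order as in the striatal block.

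Per2 was not called with all 6 libraries. It measured 2692, 2418 and 3096 in wild type and 3532, 5144 and 4373 in knockout (adjusted p = 0.0817, and 0.0197 without library 2). Bhlhe41 measured 3112, 2613 and 2891 and 3709, 4881 and 4407 (adjusted p = 0.0544, and 0.00774 without library 2). Nr1d2, Cry1 and Cry2 likewise passed only without library 2, at log2 fold changes of 0.38, 0.21 and 0.24. Per3 passed in neither fit (0.28 and 0.10 log2).

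On the activator side Arntl measured 2757, 2794 and 2887 in wild type and 2365, 1965 and 2294 in knockout (-0.35 ± 0.08 log2, adjusted p = 0.0915). Clock measured 7168, 5358 and 7082 and 4795, 4957 and 4914 (-0.41 ± 0.11 log2, adjusted p = 0.131). Both were lower in every knockout library than in any wild-type library but passed only without library 2, at -0.36 and -0.54 log2. Rorb, the 1 activator-list gene that rose, is also a transcription factor of layer 4 neurons. It measured 3479, 3272 and 3505 and 5163, 5322 and 5236 (0.62 ± 0.06 log2, adjusted p = 0.00723).

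Among the output genes Dbp, a transcription factor driven by the clock, measured 4328, 3985 and 3966 in wild type and 7155, 10577 and 8928 in knockout (1.10 ± 0.13 log2, adjusted p = 0.016). Usp2, a deubiquitinase, measured 4545, 5294 and 4736 and 7506, 8353 and 7803 (0.70 ± 0.08 log2). Sgk1, a kinase gene that glucocorticoids also induce, measured 2827, 3878 and 3371 and 6261, 5129 and 5588 (0.76 ± 0.13 log2). Sgk1 was the exception in order, with knockout library 1 highest. Cdkn1a, the cell cycle inhibitor p21, fell from 1221, 1684 and 1410.3 to 896, 858 and 886 (-0.70 ± 0.12 log2, adjusted p = 0.0424).

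Ciart, Dbp, Nr1d1 and Per1 were also called higher in knockout hippocampus. Ciart rose there by 1.19 log2 (adjusted p = 0.00089), Dbp by 0.95 (adjusted p = 0.00116), Nr1d1 by 0.75 (adjusted p = 0.00019) and Per1 by 0.54 (adjusted p = 0.000323). For none of these 4 did the difference between the tissues pass (adjusted p from 0.247 to 0.793 in the limma interaction test). The labels do not say whether a mouse gave both tissues.

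**Figure D5:**
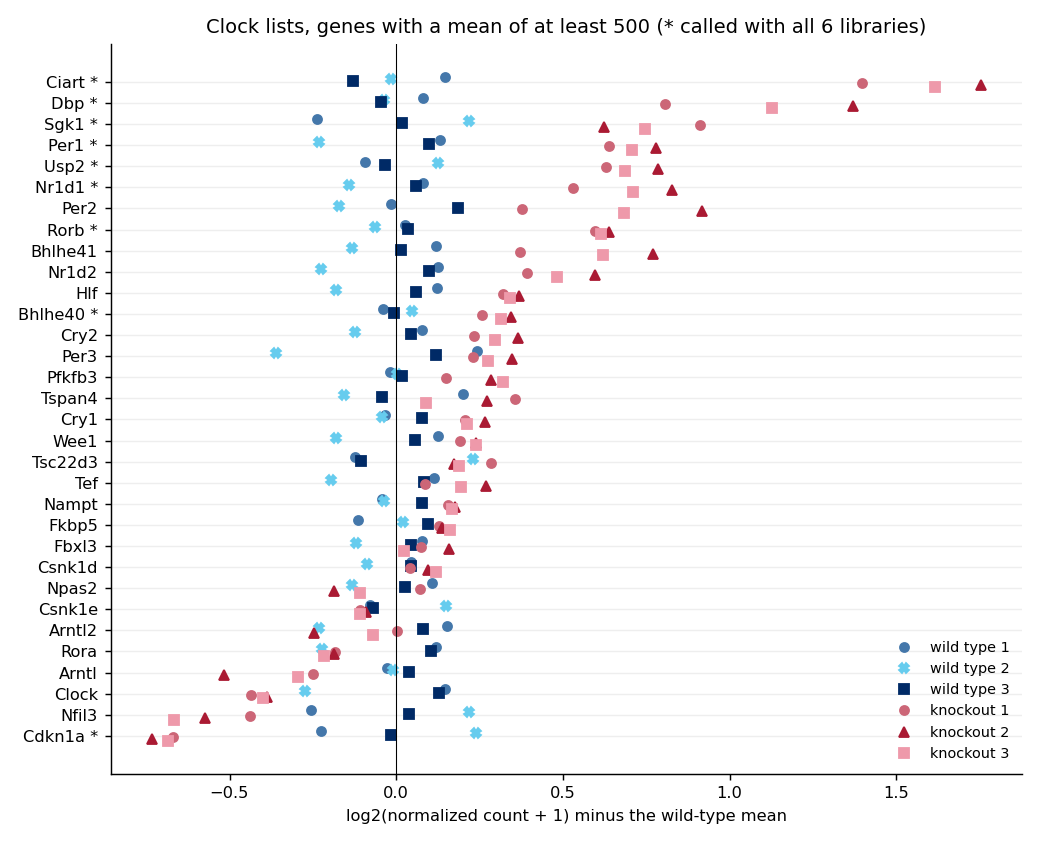
Log2(normalized count + 1) minus the wild-type mean (x axis) in each cortex library for clock list genes that averaged 500 normalized counts or more, ordered by log2 fold change. An asterisk marks genes called with all 6 libraries: Ciart, Dbp, Sgk1, Per1, Usp2, Nr1d1, Rorb and Bhlhe40 lie to the right and Cdkn1a to the left, while Arntl and Clock lie to the left without being called.

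The glucocorticoid and stress list shares Per1, Sgk1 and Cdkn1a with the clock lists. Of its 27 tested genes 4 rose and 1 fell (7 and 4 without library 2), with a median of 0.12. Over all tested genes the shares were 1.28% and 0.661% (11% and 10.3% without library 2). Besides Plin4, Hif3a, a hypoxia-inducible factor subunit, rose from 399, 439 and 463 to 945, 971 and 882 (1.10 ± 0.09 log2, adjusted p = 0.00526). Hif3a also rose in hippocampus by 0.87 log2. Tsc22d3 and Fkbp5, common reporters of glucocorticoid action, were not called with all 6 libraries, at 0.22 and 0.14 log2, and Tsc22d3 was called higher without library 2 (adjusted p = 0.000983). Of 35 immediate early genes, which follow neuronal activity, 1 rose and 0 fell (2 and 3 without library 2), with a median of -0.06.

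Markers of single cortical populations changed in both directions. Of 15 tested claustrum and piriform genes 5 rose and 1 fell (8 and 3 without library 2), with a median of 0.33. The shares of all tested genes were 1.28% and 0.661% (11% and 10.3% without library 2). Besides Oprk1 the rises with all 6 libraries were Gnb4, a G protein subunit (1215, 1354 and 1398 in wild type and 2019, 2142 and 2043 in knockout), Nr4a2, Ntng2, a netrin-G adhesion protein (0.62 ± 0.08 log2), and the vesicle protein gene Synpr (0.47 ± 0.08 log2). The value of Ntng2 is uncertain, since its gene model shares exons or its symbol with another model. Nr4a2, an orphan nuclear receptor of claustrum and deep-layer neurons, measured 1013, 1531 and 1429 and 2923, 2881 and 3049 (1.18 ± 0.15 log2, adjusted p = 0.0176). Lypd1, which the hippocampal list also holds, fell (-0.66 ± 0.07 log2).

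In the deep-layer list 2 of 26 tested genes rose and 2 fell, and without library 2 12 rose and 7 fell. With all 6 libraries Drd1 and Nr4a2 rose, and Drd1, the dopamine D1 receptor, is also in the striatal list (604, 557 and 602 in wild type and 1373, 2221 and 1741 in knockout). Fezf2, which specifies subcortical projection neurons, measured 3142, 3619 and 3071 and 2451, 2342 and 2454 (-0.44 ± 0.08 log2, adjusted p = 0.0451). Tshz2, a zinc finger gene of deep-layer neurons, measured 11793, 9084 and 10043 and 5083, 3526 and 4039 (-1.30 ± 0.15 log2, adjusted p = 0.0117). Genes on the opposite strand cover 67.5% of the exons of Tshz2, and reads of these genes cannot be told apart if strand was not kept. Of 20 upper-layer genes Rorb rose and 0 fell with all 6 libraries, while 7 rose and 5 fell without library 2. For both layer lists the shares of all tested genes were 1.28% rises and 0.661% falls (11% and 10.3% without library 2).

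Hippocampal markers gave 1 rise and 5 falls among 27 tested genes (4 and 9 without library 2), with a median of -0.17. Rises and falls made up 1.28% and 0.661% of all tested genes (11% and 10.3% without library 2). Cpne7, a calcium-binding copine, measured 2873, 2694 and 2983 in wild type and 1791, 1831 and 1772 in knockout (-0.66 ± 0.06 log2, adjusted p = 0.00723). Zbtb20, a transcription factor of hippocampal pyramidal neurons, fell by 0.35 on the log2 scale, and C1ql2, Glp1r and Lypd1 were the other falls. Plk5 rose (0.53 ± 0.07 log2). All 28 markers of the list were detected in at least 1 library.

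Among transmitter receptors outside the striatal list, 4 of 35 monoamine and acetylcholine receptors rose and 2 fell (10 and 5 without library 2), with a median of 0.11. Htr2a, the serotonin 2A receptor, measured 1178, 1243 and 1355 in wild type and 1912, 2343 and 2004 in knockout (0.73 ± 0.10 log2, adjusted p = 0.0229). Chrm1, the muscarinic M1 receptor, rose (0.36 ± 0.06 log2), as did the histamine H3 receptor gene Hrh3 (0.63 ± 0.10 log2). Hrh1, the histamine H1 receptor, fell from 1291, 1351 and 1260.05 to 886, 958 and 945 (-0.48 ± 0.07 log2), and Htr5b fell at a low level (82.2, 110.2 and 100.5 to 41.4, 52.8 and 44.9). Of 26 glutamate receptor genes Grm4 rose (0.50 ± 0.07 log2) and 0 fell with all 6 libraries, while 6 rose and 10 fell without library 2. For both receptor lists the shares of all tested genes were 1.28% rises and 0.661% falls (11% and 10.3% without library 2).

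Of 22 neuropeptide genes outside the striatal list 0 rose and 1 fell with all 6 libraries, and 5 rose and 6 fell without library 2. The fall with all 6 was Grp, the gastrin-releasing peptide, which measured 391, 429.8 and 365 in wild type and 213, 167 and 160.5 in knockout (-1.14 ± 0.14 log2, adjusted p = 0.017). Penk and Pdyn, the enkephalin and dynorphin precursors, rose but belong to the striatal list. Pdyn measured 1484, 1617 and 1436 and 2001, 2347 and 2132 (0.51 ± 0.09 log2). Crh, the corticotropin-releasing hormone, measured 479, 772 and 583 and 352, 253 and 279 and was called only without library 2 (adjusted p = 0.0526, and 0.00562 without it). Of 36 peptide receptors Oprk1 and Tacr1 rose and Glp1r fell, and without library 2 3 rose and 10 fell (36.1% called, beside 21.3% of all tested genes).

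Gad1, which makes GABA, measured 23344, 22238 and 23138 in wild type and 29508, 29259 and 29326 in knockout (0.36 ± 0.05 log2, adjusted p = 0.029). Slc32a1, the vesicular GABA transporter, measured 7484, 7119 and 7801 and 9324, 9416 and 9544 (0.34 ± 0.06 log2), with 24.9% of its exons covered by a gene on the opposite strand. The receptor subunit gene Gabrb1 fell from 10890.4, 9023 and 10821 to 7132, 7191 and 7101 (-0.52 ± 0.08 log2, adjusted p = 0.0376). Of 23 GABA genes 2 rose and 1 fell. Without library 2 the counts were 14 and 3, beside 11% rises and 10.3% falls among all tested genes. Striatal projection neurons also use GABA, and the striatal sum was higher in the same libraries. Gad1 and Slc32a1 also rose in knockout hippocampus, by 0.42 and 0.46 log2 (limma adjusted p = 0.00172 and 0.00211). The difference between the tissues did not pass for either (adjusted p = 0.642 and 0.435 in the limma interaction test). Among the knockout libraries Gad1 was highest in library 1 and Slc32a1 in library 3. The part of striatal tissue in these rises was not tested.

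Of 70 potassium channel genes outside the striatal list 5 rose and 0 fell with all 6 libraries. Kcnh4 measured 1894, 1584 and 1871 in wild type and 3029.7, 3276 and 3123 in knockout (0.82 ± 0.09 log2, adjusted p = 0.00847). Kcns2, Kcnv1 and Kcnj3 rose by 0.53, 0.37 and 0.44. Without library 2, 23 potassium channel genes rose and 17 fell, so the list then held both directions. Among all tested genes 1.28% rose and 0.661% fell with all 6 libraries, and 11% rose and 10.3% fell without library 2.

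Of 39 vesicle and active zone genes 2 rose and 0 fell, and without library 2 there were 25 rises and 4 falls, with medians of 0.18 and 0.13. All tested genes gave 1.28% rises with all 6 libraries, and 11% rises and 10.3% falls without library 2. Of the 39 genes 29 averaged 10000 normalized counts or more, a level at which 44.3% of all genes rose without library 2. Vamp1, a vesicle fusion protein, measured 12805, 13966 and 13199 in wild type and 18817, 17786 and 18084 in knockout (0.45 ± 0.06 log2, adjusted p = 0.0204). Syt2, a calcium sensor of fast synapses, measured 9095, 6708 and 8937 and 13316, 13376 and 12878 (0.69 ± 0.12 log2). In Syt2 wild-type library 2 was the lowest of its group. Of 32 postsynaptic density genes 0 were called with all 6 libraries, and 13 rose and 4 fell without library 2.

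Of 42 genes for cAMP and phosphodiesterase signalling 6 rose and 0 fell with all 6 libraries, and outside the striatal list 2 of 38 rose. Without library 2, 15 of the 42 rose and 10 fell, of which 11 rises and 10 falls lay outside that list. The 2 rises outside it with all 6 libraries were the phosphodiesterase genes Pde7b (2865, 2216 and 2666 in wild type and 3788, 4455 and 4328 in knockout) and Pde8b (6901, 6628 and 7169.9 and 8703, 9422 and 8887). Ppp1r1b, the dopamine-regulated phosphatase inhibitor DARPP-32, measured 5103, 6494 and 5401 and 12643, 18783 and 15702, and Pde1b 9124, 9305 and 9457 and 14721, 19070.2 and 16963, and both are striatal members. All 4 of these genes were lowest in knockout library 1 and highest in library 2. Rises and falls made up 1.28% and 0.661% of all tested genes (11% and 10.3% without library 2).

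In the retinoic acid list the calls included nuclear receptors and enzymes. Rxrg and Rarb, nuclear receptors in the striatal list, rose by 2.60 and 1.09 log2. Outside that list 1 of 15 genes rose and 1 fell (3 and 2 without library 2). Aldh1a1, a retinaldehyde dehydrogenase, measured 2004, 2142 and 2070.4 in wild type and 2658, 2597 and 2817 in knockout (0.38 ± 0.06 log2), and Aldh1a3, a second enzyme of that step that the meningeal list also holds, 179, 133 and 130.1 and 71.5, 46.6 and 50.3 (-1.39 ± 0.23 log2).

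Among 20 neurotrophin genes 2 rose, both from low levels, and 0 fell (5 and 5 without library 2). Gdnf, a survival factor for dopamine neurons, measured 8.92, 11 and 5.74 in wild type and 38.6, 60 and 28.9 in knockout (adjusted p = 0.0464). At these levels the log2 scale with 1 added to each value understates the change. The cholinergic genes Chat and Slc5a7, both in the striatal list, rose by 1.60 and 1.55 log2.

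Sema7a, a membrane-bound semaphorin, measured 15887, 16004 and 16337 in wild type and 20814, 20952 and 21439.7 in knockout (0.39 ± 0.05 log2, adjusted p = 0.0205). Sema3c and Epha7, a secreted semaphorin and an ephrin receptor, rose by 0.60 and 0.48 log2. These were the 3 rises among 64 guidance genes, with 0 falls, and without library 2 11 rose and 18 fell. Over all tested genes 1.28% rose and 0.661% fell (11% and 10.3% without library 2). Of 57 clustered protocadherins, which give neurons their surface identity, Pcdhb13 rose and 0 fell (12 and 2 without library 2), and 22 of the 57 had every knockout library above every wild-type library (38.6%, beside 16% of all genes).

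In the Wnt list 1 of 54 genes rose and 2 fell (10 and 7 without library 2). The shares of all tested genes were 1.28% and 0.661% (11% and 10.3% without library 2). Frzb, the Wnt inhibitor named above, rose but is not in this list. Wnt9b measured 42.6, 44.1 and 43.1 in wild type and 6.58, 6.21 and 6.42 in knockout (-2.58 ± 0.28 log2, adjusted p = 0.0104). The knockout values stand for only a few reads each, so their closeness carries little weight. Wnt9b was called in 1 of the 6 fits that leave out 1 library each. Dkk3, a secreted protein of the Dickkopf family, fell from 30498, 28406 and 30009.6 to 23394, 24377 and 23595 (-0.32 ± 0.06 log2). Lgr5, a receptor that strengthens Wnt signals, measured 142, 159 and 186 and 311, 277 and 260.00 (0.80 ± 0.14 log2). Of 39 TGF-beta and BMP genes 0 were called by limma with all 6 libraries, and 4 rose and 4 fell without library 2.

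Of 28 endothelial genes 5 rose and 0 fell, with a median of 0.25, beside 1.28% rises among all tested genes. Without library 2, 14 rose and 2 fell, beside 11% and 10.3%. Eng, a TGF-beta co-receptor of endothelium, measured 1479, 1446 and 1507 in wild type and 2400.4, 2399.8 and 2390.3 in knockout (0.70 ± 0.06 log2, adjusted p = 0.00529). Slc2a1, which carries glucose into the brain across its vessels, measured 4208, 4913 and 4489 and 6424, 6374 and 6547 (0.51 ± 0.07 log2). Slco1a4, an organic anion transporter, rose (0.53 ± 0.08 log2), as did the adhesion receptor gene Adgrf5 (0.77 ± 0.13 log2) and Vwf, von Willebrand factor (0.79 ± 0.14 log2). In Eng and Slc2a1 the 3 knockout libraries were nearly equal and did not follow the striatal order. Of 16 mural cell genes Mylk and Rgs5 rose, by 0.50 and 0.37 log2, and without library 2 3 rose and 0 fell.

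In the meningeal list the calls were falls. Of 27 tested genes 0 rose and 2 fell (0 and 9 without library 2), with a median of -0.63, and 16 had every knockout library below every wild-type library (59.3%, beside 12.2% of all genes). Slc6a13, a GABA transporter of the meninges, measured 721, 645 and 606 in wild type and 361, 202 and 275 in knockout (-1.27 ± 0.20 log2, adjusted p = 0.038). Ptgds, prostaglandin D synthase and a defining transcript of meningeal cells, measured 35011, 50959 and 35416 and 28109.8, 15902 and 22484 and was called only without library 2 (adjusted p = 0.108, and 0.0325 without it). Knockout library 2 was lowest in both, the reverse of its place in the striatal block. The collagen list held 3 rises and 1 fall among 43 genes (3 and 8 without library 2). For both lists the shares of all tested genes were 1.28% rises and 0.661% falls (11% and 10.3% without library 2). Col6a3 fell from 323, 385 and 401 to 194, 186 and 185 (-0.96 ± 0.12 log2), while Col24a1 (0.97 ± 0.13 log2) and Col6a1 (0.31 ± 0.05 log2) rose beside Col11a1.

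With all 6 libraries 2 of 31 oligodendrocyte genes were called, both higher. Without library 2, 18 rose and 0 fell, beside 11% rises and 10.3% falls among all tested genes. Hapln2, a matrix protein at nodes of Ranvier, measured 2153, 2254 and 2211 in wild type and 2998, 3255 and 3051 in knockout (0.49 ± 0.06 log2, adjusted p = 0.0181). Of 26 astrocyte genes 0 rose and 2 fell (3 and 5 without library 2). Gfap, the intermediate filament of reactive astrocytes, measured 8205, 8725 and 8334 and 7076, 6687 and 6613 (-0.31 ± 0.06 log2, adjusted p = 0.0497), and Fabp7 fell by 0.65 on the log2 scale. P2ry12, the purinergic receptor of resting microglia, rose (0.36 ± 0.06 log2) and was the 1 microglial call with all 6 libraries. Without library 2, 8 of 24 microglial genes rose and 0 fell, beside the same shares of all tested genes.

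Calls in the cholesterol list were rises. Both called genes among 28 rose. Without library 2 there were 12 rises and 0 falls, beside 11% rises and 10.3% falls among all tested genes. Insig1, which holds back the sterol-sensing machinery, measured 4427, 3810.02 and 4152 in wild type and 5415, 6046 and 5809.8 in knockout (0.48 ± 0.08 log2, adjusted p = 0.0379).

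Of 25 telomere maintenance genes Tert was the 1 call with all 6 libraries, and without library 2 0 rose and 4 fell, Tert included. Dkc1, the dyskerin subunit of telomerase, measured 1680.2, 1954 and 1709 in wild type and 1768, 1892 and 1731 in knockout (adjusted p = 0.938). Of 42 genes of the DNA damage and p53 response 1 rose, the fructose bisphosphatase gene Tigar (0.37 ± 0.06 log2), and 1 fell, Cdkn1a. Without library 2, 6 rose and 7 fell, beside 11% and 10.3% of all tested genes. Mdm2 and Bax, both p53 targets, were called in neither fit, at 0.10 and -0.18 log2. Of 28 senescence and inflammation genes Cxcl12 rose (0.43 ± 0.08 log2), and Mmp14 (-0.56 ± 0.09 log2) and Cdkn1a fell (4 rises and 3 falls without library 2). Of 36 interferon and MHC class I genes 0 were called with all 6 libraries, and 4 rose and 0 fell without library 2. Of 35 amyloid and tau genes the amyloid-degrading protease gene Mme rose (366, 361 and 442 to 588, 734 and 735) and 0 fell (12 and 3 without library 2).

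Housekeeping lists show how much the account depends on library 2. For 85 cytosolic ribosomal protein genes the median was -0.23 with all 6 libraries and -0.04 without library 2. Their median exonic length was 1739 bases, in the class where library 2 lay high. No ribosomal gene was called by limma with all 6 libraries, and 0 rose and 6 fell without library 2. For 84 nuclear genes of oxidative phosphorylation the median turned from -0.13 to 0.06, with 0 calls and then 14 rises and 0 falls. Of 40 lysosome and autophagy genes 0 were called, and without library 2 18 rose and 0 fell with a median of 0.09, beside 11% rises and 10.3% falls among all tested genes. Of the 40 genes 13 averaged 10000 normalized counts or more.

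Chromatin genes gave the opposite picture. Of 57 modifiers and remodelers 0 were called with all 6 libraries, and without library 2 7 rose and 28 fell, with medians of 0.02 and -0.11. Their median exonic length was 12811 bases. Of all 866 protein-coding genes over 12 kb, 50.9% fell and 8.43% rose without library 2, beside 10.3% and 11% of all tested genes, so the share of falls in the chromatin list was close to that of long genes in general. With all 6 libraries 12 genes over 12 kb rose and 6 fell.

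Some transcripts that stay in the nucleus fell. Malat1, an abundant noncoding RNA kept in the nucleus, measured 127593, 89792 and 116682 in wild type and 58733, 51596 and 60718 in knockout (-0.95 ± 0.14 log2, adjusted p = 0.0269). Kcnq1ot1 fell too (-0.38 ± 0.07 log2), and the 2 were the calls among 19 nuclear noncoding RNAs with all 6 libraries (1 rise and 8 falls without library 2), with a median of -0.24. Over all tested genes 1.28% rose and 0.661% fell (11% and 10.3% without library 2). Neat1 measured 13351, 10874 and 12617 and 10585, 10296 and 10245 (adjusted p = 0.197, and 0.00033 without library 2). Gene models that the annotation calls sense intronic, which lie inside introns of other genes, had a median of -0.34 over 103 models, and models still awaiting experimental support (TEC) -0.28 over 1065, with 4 rises and 20 falls. These medians were -0.37 and -0.28 without library 2, so they did not turn with that library. Tra2a, a splicing factor, fell from 5824, 4851 and 5579.8 to 3201, 3028 and 3249 (-0.77 ± 0.08 log2, adjusted p = 0.00855), and Rbfox1, a neuronal one, rose from 16752, 16956 and 17415 to 23599.7, 24522 and 24137 (0.50 ± 0.05 log2, adjusted p = 0.00847), the 2 calls among 51 splicing factors with all 6 libraries (7 rises and 13 falls without library 2).

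Calls were more frequent among genes at high levels. Of 1526 genes that averaged 10000 normalized counts or more, 45 rose and 4 fell, and 676 rose (44.3%) and 230 fell (15.1%) without library 2. Of 6601 genes with a mean under 100, 19 rose and 27 fell. The part of expression level in the counts of each list was not tested.

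Of 4249 genes called only without library 2, library 2 lay nearer to the knockout mean than both other wild-type libraries in 2181 (51.3%). The groups did not overlap with all 6 libraries in 2505 of them (59%, beside 28.3% of all tested genes). These genes were chosen for passing without library 2 and not with it, so both shares follow in part from that choice. In each of the 8 largest falls among the 4249 genes library 2 lay nearest to the knockout. Hipk2, a nuclear kinase, measured 10260.3, 3119.7 and 9694 in wild type and 1449, 1658 and 1687 in knockout (-2.64 ± 0.07 log2 without library 2, adjusted p = 1.22e-06). Lcor, a nuclear receptor corepressor, measured 1121, 276 and 976 and 109, 136 and 139 (-3.03 ± 0.13 log2), and Gucy1a2, a subunit of the nitric oxide receptor, 816, 215 and 788 and 120.4, 160.4 and 188 (-2.38 ± 0.17 log2). The channel gene Kcng3 measured 247, 34.1 and 215 and 5.64, 15.5 and 19.3, and Tcp11l1 1978, 685 and 2021 and 525, 480.2 and 404. In H2-T24 and Zfp804b library 2 was within or next to the knockout range, at 684, 206 and 652 against 204, 162 and 142 and at 116, 35.1 and 117 against 36.7, 24.8 and 30. Cntnap5c measured 239.7, 101 and 210.5 and 49.9, 67.3 and 40.7.

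These 8 genes were also lower in knockout hippocampus, where no cortex library enters. The log2 fold change there was -3.77 for Hipk2, -4.01 for Lcor, -4.05 for Kcng3 and -2.31 for Gucy1a2 (adjusted p from 5.75e-06 to 0.000371). Muc6, a gel-forming mucin, and Igha, the constant region of immunoglobulin A, headed the 8 largest rises called only without library 2. Muc6 measured 32.7, 692 and 40.2 in wild type and 462, 436 and 458 in knockout (3.60 ± 0.14 log2 without library 2), with library 2 above the knockout. Igha measured 16.8, 47.1 and 17.2 and 84.7, 95.2 and 93.1 (2.35 ± 0.23 log2).

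In Igha and in the next 3 genes all 3 wild-type libraries lay below the knockout libraries. Htr1d, a serotonin receptor, measured 28.7, 44.1 and 22 in wild type and 93.1, 174 and 83.5 in knockout (adjusted p = 0.0569, and 0.00334 without library 2). Batf3, a transcription factor of dendritic cells, measured 34.7, 65.1 and 50.7 and 112, 113 and 83.5 (1.26 ± 0.25 log2), and Slc22a3, an organic cation transporter, 37.6, 65.1 and 46.9 and 68.7, 129 and 119.8 (1.26 ± 0.30 log2). Vwa7, Trim72 and Ano2 rose by 1.29, 1.24 and 1.19 log2 without library 2. These 6 genes had means under 200 normalized counts.

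The knockout effect differed between cortex and hippocampus in 642 of 21282 genes (3.02%) by the interaction term of a limma fit over all 12 libraries. Leaving out 1 library at a time moved that count between 171, without wild-type hippocampus library 3, and 1966, without wild-type cortex library 2. Of 45 striatal genes in that fit 26 differed (57.8%), each with the higher log2 fold change in cortex, and of 38 choroid plexus genes 1 did (2.63%). The cortex rise of Drd2 exceeded the hippocampal value by 3.25 log2 (adjusted p = 0.00176) and that of Syndig1l by 2.57 (adjusted p = 0.000259). Among other genes St8sia3 differed by 1.80 (adjusted p = 3.75e-05) and Col11a1 by 1.62 (adjusted p = 0.000318). Mid1, Malat1 and Tra2a, by contrast, fell in cortex with differences of -0.19, -0.00 and -0.05 that did not pass (adjusted p from 0.277 to 0.999).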

How the data were processed

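RNA sequencing values of 6 cortex and 6 hippocampus libraries were analysed. The authors deposited 1 table per tissue, holding a signal per gene (normalized counts, per its name). Per the submitters' processing notes, STAR, HTSeq and DESeq2 were used with build GRCm38; the sources used here give no versions or settings. All values of a library were whole multiples of 1 step (100% within 0.001), with steps from 0.941 to 1.07 in cortex. Dividing by the step gave reads for edgeR and DESeq2; for wild-type cortex libraries 1 and 2, whose step is close to 1, this reading could not be checked. The floor of 3 reads covers counting error only. Columns of other samples numbered 0.

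Genes were matched to the GENCODE annotation of GRCm38 (55227 of 55487 rows, and 21902 of 21945 tested genes). Genotypes were compared with limma 3.58.1 in R 4.3.3 on log2(normalized count + 1), with a prior variance that follows the mean, and Benjamini-Hochberg adjusted p below 0.05. Fold changes on that scale understate the change of low genes, and values after ± are standard errors for log2 fold changes. All 3 replicates of a group entered the fit without a block. The labels do not say whether replicate numbers pair the libraries, and the main fit took them as unpaired. Alternatives were other pseudocounts, filters, scalings, variance models, library weights, edgeR 4.0.16, DESeq2 1.42.0, all 12 libraries in one fit, a replicate block, each library left out, and removal of the trend along exonic length. The main limma fit, edgeR and the interaction fit were first tested on simulated counts in which known genes changed. The simulated libraries shared 1 spread and held no outlying library, and the other alternatives were not tested in this way.

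The 60 gene lists (18 of markers and 42 of functions) and the rule for named genes were chosen with earlier results of these data known, so a list's direction is no independent evidence. Named are Tert, App, the 15 largest rises and falls outside the striatal and choroid plexus lists among called genes without overlap and with a mean of at least 50, the 8 largest rises and falls called only without wild-type library 2, up to 4 members with the smallest p of each list with at least 3 calls, and called genes within 10 Mb of Tert. Other genes, among them Frzb, Per2, Arntl, Clock, Malat1, Ttr, Ptgds and further list members, were chosen after their values were seen. Predicted names and models sharing exons or a symbol with another model were only counted or are called uncertain. Some genes that the rule picks are not reported here.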

Additional observations from a re-analysis of the deposited data

Results flagged for a closer look

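For 35 of the 110 named genes the knockout effect differed between cortex and hippocampus by the interaction term of the limma fit (adjusted p below 0.05, where 3.02% of 21282 genes passed). Most named genes were picked by their change in cortex, and that change is part of the difference tested. The number that passed therefore follows in part from that choice and is no independent evidence. Each value below is the log2 fold change in cortex minus that in hippocampus. Among rises in cortex outside the striatal and choroid plexus lists, the difference was 1.80 for St8sia3, 2.24 for Oprk1, 3.09 for Ptprv, 0.96 for Plin4, 2.27 for Nexn, 1.27 for Dach1, 1.62 for Col11a1 and 1.13 for Tacr1. It was 1.10 for Nr4a2, 0.48 for Kcns2, 0.92 for Pde7b and 2.30 for Col24a1. Plin4 rose in both tissues, by 1.54 in cortex and 0.57 in hippocampus.

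Striatal members differed by 2.57 (Syndig1l), 2.81 (Lrrc10b), 3.25 (Drd2), 3.58 (Cd4), 1.35 (Drd1), 2.38 (Rxrg), 1.22 (Rarb), 1.64 (Penk), 1.72 (Ppp1r1b) and 0.67 (Pde1b). The choroid plexus gene Car12 differed by 2.15. Car12 rose in cortex by 1.06 (adjusted p = 0.0141) and fell in hippocampus by 1.09 (adjusted p = 0.0193).

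Among falls in cortex the difference was -2.62 for Glp1r, -3.38 for Ctxn3, -2.08 for C1ql2, -1.38 for Tshz2, -1.13 for Grp and -2.57 for Wnt9b. It was -0.72 for Cpne7, -0.71 for Lypd1, -0.71 for Fezf2, -0.71 for Hrh1, -0.39 for Dkk3 and -0.54 for Mmp14. Fezf2 fell in cortex and rose in hippocampus by 0.27 (adjusted p = 0.0139). Ptprv, Col11a1 and Pde7b rose in cortex and fell in hippocampus, by 1.33, 0.39 and 0.21 (adjusted p = 0.0175, 0.0061 and 0.0378). The labels do not say whether a mouse gave both tissues, and the test took all 12 libraries as independent.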

How the results depend on the processing

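The count of 426 called genes (392 outside the striatal and choroid plexus lists) stayed within 1.5 times under 9 alternatives. It moved to 233 (210) with no filter on low values, 86 (74) with no trend of the prior variance, 7358 (7297) with library weights, which gave wild-type library 2 a weight of 0.0844, 1609 (1563) with DESeq2 and 1555 (1520) with all 12 libraries in one fit. Leaving out each cortex library gave 15 to 4675 (14 to 4626). Alternatives chosen after seeing the data gave 1285 (1245) with the trend along exonic length removed, 4640 (4588) with the trend removed and wild-type library 2 left out, and 4711 (4661) with edgeR and that library left out. The count of 642 genes that differed between tissues moved to 370 with no filter, 253 with no trend, 1013 with quantile normalization and 8043 with library weights, and ran from 171 to 1966 with 1 library left out. With a replicate block the counts were 45 (34) and 110. The correlation of deviations between same-numbered libraries was -0.03, 0.01 and -0.07. With 3 libraries per group and the spread of wild-type library 2, such values cannot show whether the numbers pair the libraries. For the 110 named genes no value reversed its sign in 2636 recomputed values, of which 1986 kept their side of the threshold, 497 lost the call and 153 gained it. The causes were not tested. Counting depth limits the lowest genes only; 3 libraries per group and the spread of wild-type library 2 limit the rest.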

Other observations

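The remaining lists are given by their calls with all 6 libraries, with those without wild-type library 2 after them. Over all tested genes 1.28% rose and 0.661% fell with all 6 libraries, and 11% rose and 10.3% fell without library 2. Of 25 ependymal and cilia genes 1 rose, Pltp, a phospholipid transfer protein, and 0 fell, with a median log2 fold change of -0.21. Without library 2, 1 rose and 5 fell. Of 20 excitatory neuron genes 1 rose and 0 fell (11 and 3 without library 2), and of 29 interneuron genes 2 rose and 0 fell (9 and 10). Of 15 oligodendrocyte precursor genes 0 were called by limma with all 6 libraries and 2 fell without library 2. Of 19 thalamus and habenula genes 0 were called, and 1 rose and 4 fell without library 2. Of 17 blood cell genes only S100a8, a calcium-binding protein of neutrophils, was called, in both fits. It measured 7.93, 97.2 and 31.6 in wild type, highest in library 2, and was listed at 0 in all 3 knockout libraries.

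Of 38 histone genes 0 rose and 1 fell, Hist3h2a, which measured 1327, 2034 and 1573 in wild type and 779.8, 805 and 837 in knockout (adjusted p = 0.0299). Its values are uncertain, since its gene model shares exons or its symbol with another model. Without library 2, 0 histone genes rose and 5 fell. The list's median was -0.27 with all 6 libraries and -0.22 without library 2, and 14 of the 38 genes had every knockout library below every wild-type library (36.8%, beside 12.2% of all genes). Of 40 sodium and calcium channel genes Scn4b and Cacna2d3 rose and 0 fell (12 and 11 without library 2). Of 28 thyroid hormone and insulin genes Hr, a corepressor induced by thyroid hormone, rose (0.64 ± 0.12 log2) and 0 fell (5 and 6 without library 2). Of 27 glycolysis genes Slc2a1 alone rose (11 rises and 5 falls without library 2).

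Among mitochondrial ribosomal proteins (77 genes), mitochondrially encoded proteins (13), proteasome (39), antioxidant (38) and heat shock genes (37), limma called 0 with all 6 libraries. Without library 2 the rises and falls were 5 and 0, 6 and 1, 7 and 0, 6 and 3, and 6 and 4.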
